A study of Mus musculus with 12 samples.

Results

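The 10 genes described here were the receptors *Notch1*, *Notch2* and *Notch3*, the ligands *Jag1* and *Dll1*, the transcriptional targets *Hes1*, *Hey1*, *Hey2* and *Heyl*, and the target and feedback gene *Nrarp*. They were chosen by gene name among the 32288 genes and transgenes of the deposited count table, and all 10 were found in it. Notch receptors are activated when a ligand on a neighbouring cell binds them. Cleavage then frees the receptor's intracellular part, which joins RBPJ in the nucleus and switches on genes of the *Hes* and *Hey* families, most of them repressors, and *Nrarp*, which promotes loss of the intracellular part. In bone, Notch signalling is known to hold mesenchymal progenitors back from osteoblast differentiation, and JAG1, NOTCH3 and HEYL are also known from the mural cells of blood vessels.

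Bulk RNA-seq was made from 12 libraries of mGFP+ cells sorted, after removal of endothelial and blood cells, from the metaphysis of mouse femurs and tibias. Juvenile *Osx*+ osteoblasts (4 libraries, mice of 3 weeks) and adult *Osx*+ osteoblasts (4 libraries, mice of 8 weeks) came from *Osx-CreERT2*; *mTmG* mice, with 2 males pooled per library. *c-Myc*-induced osteoblasts (2 libraries) carried in addition *LSL-tTA* and the *Col1a1::TetO–c-Myc* transgene, and *c-Myc* + *R172H* osteoblasts (2 libraries) carried *Trp53-LSL-R172H*, a dominant-negative p53 allele, on top of these. All 12 libraries thus share *CreERT2* at the *Osx* locus, the *mTmG* reporter and tamoxifen, so that mGFP marks cells that expressed *Osx* at the time of tamoxifen and their descendants. The induced mice, of both sexes, were taken 7 days after tamoxifen, whereas the control cells were collected 2 days after the last tamoxifen dose. Their titles give 3 weeks, whereas the dissection text gives 5 weeks and a diaphysis trimmed at 5 mm, against 2 mm in the controls. The paper also gives different numbers of tamoxifen treatments for control and induced mice. It gave doxycycline or tetracycline to mice with the inducible transgene, or to pregnant females, before analysis. Transgene, age at dissection, trimmed region, these drug courses and time since tamoxifen therefore cannot be told apart in comparisons of induced with juvenile osteoblasts.

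For 7 of the 10 genes (not *Hes1*, *Hey1* or *Heyl*), RefSeq promoter windows (250 bases before to 50 after a start site, GRCm38.p6) were at hand. They were searched on both strands for the RBPJ core TGGGAA, which 25.6% of all 32851 windows hold, for the E-box CACGTG recognised by MYC (7.15%) and for the GC box GGGCGG (35.7%). The stretches below are shown because they hold all matches to the RBPJ and MYC letters in these 7 genes. *Hes1*, *Hey1* and *Heyl* were not searched, so nothing is said of their promoters. GC boxes numbered 7 in the *Notch2* window, 5 for *Notch1*, 4 for *Notch3*, 3 for *Hey2* and 2 for *Nrarp*, and the closest pair of *Notch3* is shown because it is the receptor whose level differed between groups by the most. All are 5′ to 3′ on the gene's strand, with the matched letters in capitals (TTCCCA and CCGCCC are the motifs on the opposite strand). Distances are those of the first matched base, so the second *Hey2* match runs across the start site.
*Hey2*, 207 bases before the start site, chr10:30842973-30843002, minus strand: tgcgcggtggcaTTCCCAcgcctctgccaa
*Hey2*, 3 bases before the start site, chr10:30842769-30842798, minus strand: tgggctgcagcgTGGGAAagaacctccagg
*Nrarp*, 108 bases before the start site, chr2:25180638-25180667, plus strand: ccgccccgccccCACGTGggcaccacccaa
*Notch3*, from 49 bases before the start site, chr17:32166916-32166945, minus strand: gccccgGGGCGGggcgagCCGCCCaggcct
A match describes these letters in this window and is not a measured binding site. *Hey2* and *Nrarp*, whose windows hold the RBPJ and MYC letters, were among the least expressed of the 10 genes, as given below. So was *Dll1*, whose windows hold neither.

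Total counts were between 9066154 and 15684412 per library, and 3 counts, taken as the limit of detection, corresponded to 0.137 to 0.417 CPM (counts scaled to library size and to TMM factors over the 12 libraries). *Col1a1*, *Col1a2* and *Gm26917* together took 57.1% to 65.3% of the counts in juvenile libraries and 35.2% to 37.6% in *c-Myc* + *R172H* libraries. A scaling by library totals shifted the median gene upward in the induced groups, to a log2 fold change of 0.87 for *c-Myc* and 1.12 for *c-Myc* + *R172H* over juvenile. *Myc* was at 39.8 to 52.2 CPM in juvenile, 44.7 to 51.2 CPM in adult and 624 to 748 CPM in induced osteoblasts. *Xist* was at 234 CPM in *c-Myc* replicate 2 and 212 CPM in *c-Myc* + *R172H* replicate 2, and at no more than 1.24 CPM elsewhere. Replicate 1 of each induced group thus matched the male controls in *Xist*. Both replicates of each induced group lay below all 4 juvenile libraries for *Jag1*, *Heyl* and *Notch3*, at the levels given below. The part of sex in these values was not tested. All 8 osteoblast markers were detected in every group, with *Sp7* (*Osx*) at 227 to 246 CPM in juvenile and 119 to 152 CPM in induced libraries. Of 10 endothelial markers, 7 (*Pecam1*, *Cdh5*, *Kdr*, *Tie1*, *Emcn*, *Esam* and *Sox17*) were at 0 in all juvenile libraries, and the 10 summed to at most 9.13 CPM in any library. The summed level of 10 pericyte and smooth muscle markers, all 10 of them detected, was 379 to 489 CPM in juvenile, 539 to 932 in adult, 240 to 263 in *c-Myc* and 182 to 200 CPM in *c-Myc* + *R172H* osteoblasts. That of 8 chondrocyte markers was 8383 to 24799, 32966 to 119961, 340 to 531 and 160 to 162 CPM in the same order. In bulk samples such as these, fewer cells of a type and less RNA per cell cannot be told apart.

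Levels of different genes were compared per length, as CPM per kilobase of merged exon. In juvenile osteoblasts *Notch2* had the highest level of the 10 genes at 21.2 CPM per kilobase, followed by *Hes1* at 8.98, *Notch3* at 5.41, *Jag1* at 3.65, *Heyl* at 3.18, *Hey1* at 2.13 and *Notch1* at 1.71. *Dll1* at 0.326, *Hey2* at 0.176 and *Nrarp* at 0 closed the order. The ranges of *Notch2*, *Hes1* and *Notch3* over the 4 juvenile libraries did not overlap each other, whereas each neighbouring pair from *Notch3* down to *Notch1* in this order overlapped. *Notch2* thus made up 74.4% ± 1.32 (SD, n = 4) of the summed level per length of the 4 receptor genes in juvenile, 74.4% ± 3.00 (n = 4) in adult, 80.4% ± 1.53 (n = 2) in *c-Myc* and 87.2% ± 1.66 (n = 2) in *c-Myc* + *R172H* osteoblasts. The share of *Notch3* was 18.9% ± 3.00, 19.2% ± 1.46, 13.8% ± 1.24 and 8.71% ± 2.26 in the same order. *Notch2* was the main receptor transcript in every library, and shares of this kind do not depend on the scaling between libraries. Among 5 ligand genes *Jag1* made up 84.2% ± 4.53 of the summed level per length in juvenile, 85.3% ± 6.23 in adult, 53.2% ± 1.68 in *c-Myc* and 59.5% ± 4.21 in *c-Myc* + *R172H* osteoblasts.

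**Figure D1:**
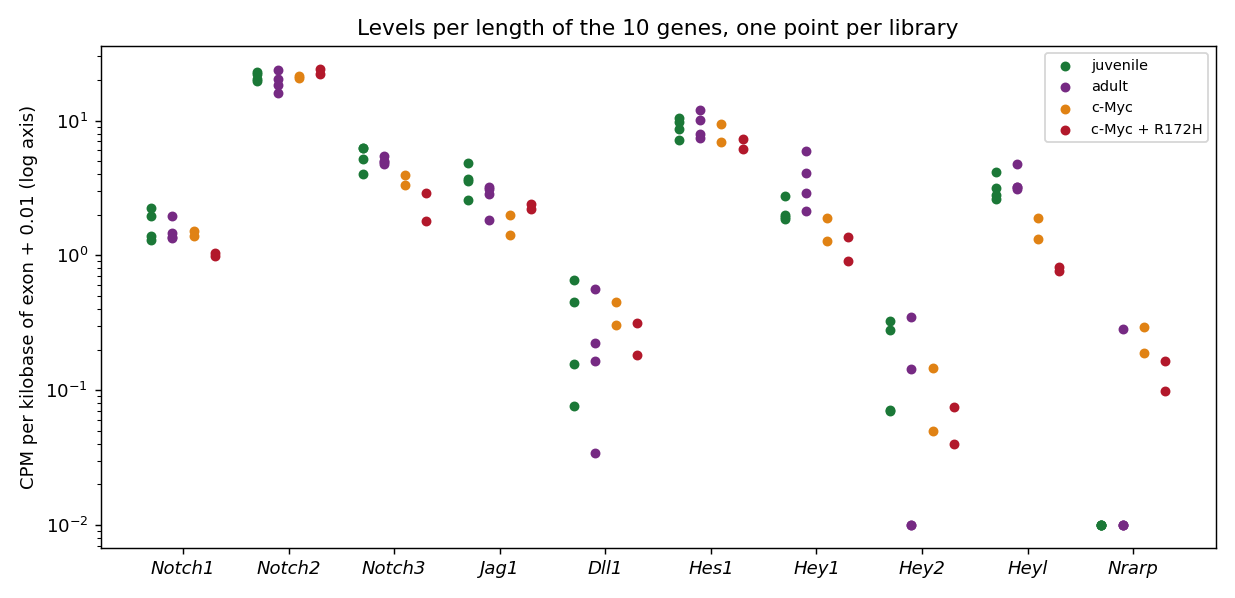
Level of each of the 10 genes per length (CPM per kilobase of merged exon plus 0.01, log axis), with a point for each library coloured by group. *Notch2* lies highest in all groups, *Dll1*, *Hey2* and *Nrarp* lie lowest, and the points of *Nrarp* at the bottom are libraries with no count.

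The first comparison asked how the genes differed between juvenile and adult osteoblasts. None of the 7 genes that passed the filter on low counts (*Dll1*, *Hey2* and *Nrarp* did not) was called at an adjusted p below 0.05 in edgeR's quasi-likelihood test, against 1.89% of all 11345 genes tested called higher and 3.23% called lower in juvenile osteoblasts. 1 of the 7, *Hey1*, had an unadjusted p below 0.05, and DESeq2 also called 0. With a log2 fold change of at least 1 in size also required, 0 of 7 were called, against 0.379% of all genes higher and 1.96% lower. Receptor, ligand and target levels of the age groups overlapped throughout.

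*Notch2* (chromosome 3, 98013527 to 98150361, GRCm38) was at 238, 218, 210 and 248 CPM in juvenile and 197, 256, 221 and 174 CPM in adult libraries. *Notch3* (chromosome 17, 32120820 to 32166852) was at 41.8, 50.6, 32.5 and 50.2 CPM against 39.6, 43.8, 40.1 and 38.6 CPM. *Notch1* (chromosome 2, 26457903 to 26516663) was at 27.5, 18.4, 31.7 and 19.5 CPM against 19.0, 20.8, 19.4 and 27.5 CPM. The 3 receptors had log2 fold changes of 0.15 ± 0.20 (SE) for *Notch1*, 0.10 ± 0.13 for *Notch2* and 0.11 ± 0.15 for *Notch3*, juvenile over adult, and 2 SE on either side of the *Notch2* value reached from -0.16 to 0.36. These small differences turned below 0 for all 3 receptors when libraries were scaled by their totals (-0.11, -0.13 and -0.13).

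*Jag1*, the ligand with the highest level, lies on chromosome 2 from 137081456 to 137116644 and was at 21.6, 15.0, 20.6 and 28.1 CPM in juvenile and 10.6, 18.7, 18.0 and 16.6 CPM in adult libraries. The highest juvenile libraries lay above every adult library, but juvenile replicate 2 lay within the adult range, and the log2 fold change of 0.41 ± 0.23 had an adjusted p of 0.348. *Dll1* (chromosome 17, 15367354 to 15376872), a ligand of the Delta type, had 30, 6, 2 and 15 counts in juvenile and 1, 8, 5 and 22 counts in adult libraries, at or under the limit of detection in 1 library of each group.

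*Hey1* (chromosome 3, 8663359 to 8667256), a repressor that restrains osteoblast differentiation, was at 6.48, 6.09, 6.26 and 8.94 CPM in juvenile and 6.89, 13.2, 19.3 and 9.49 CPM in adult libraries. 3 of the 4 adult libraries lay above all juvenile ones and adult replicate 1 lay within their range. The log2 fold change was -0.81 ± 0.31 (adjusted p = 0.133, edgeR's quasi-likelihood test). Scaling by library totals gave -1.05 with an adjusted p of 0.0402. The chondrocyte and the pericyte and smooth muscle marker sums were also higher in every adult than in every juvenile library. So were the sums of marrow stromal markers (420 to 651 against 326 to 415 CPM) and of haematopoietic markers (5.97 to 11.5 against 0.913 to 2.09 CPM). The osteoblast marker sum went the other way on average, at 229235 to 412826 CPM in adult and 395580 to 573304 CPM in juvenile libraries, with overlapping ranges. The part of any of these in the value of *Hey1* was not tested. *Hes1* (chromosome 16, 30064384 to 30067796), a repressor with many inputs besides Notch, was at 17.5, 19.8, 21.1 and 14.7 CPM in juvenile and 15.0, 20.5, 24.6 and 16.2 CPM in adult libraries, a log2 fold change of -0.066 ± 0.20. *Heyl* (chromosome 4, 123233556 to 123249875), the third *Hey* repressor, was at 13.3, 16.2, 21.3 and 14.2 CPM against 15.9, 16.3, 16.4 and 24.2 CPM, a log2 fold change of -0.18 ± 0.21. Both targets overlapped between the ages.

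**Figure D2:**
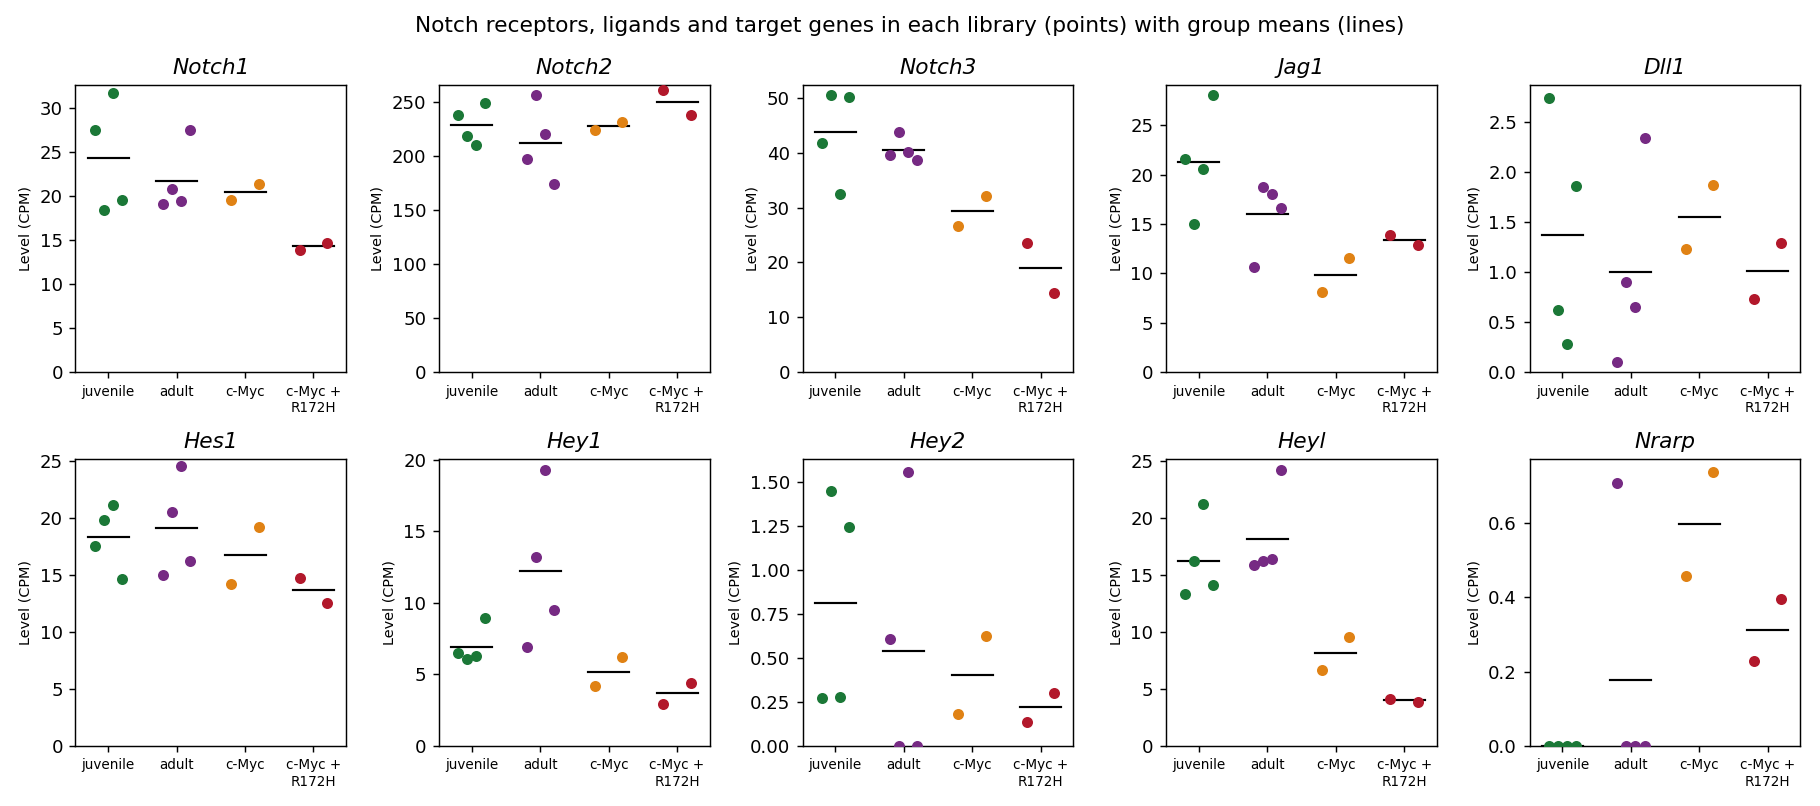
Level (CPM, linear axis from 0) of each of the 10 genes in the 12 libraries, by group, with a point for each library and a line at the group mean. Juvenile and adult points overlap for all 10 genes, and on this TMM scale *Notch3*, *Jag1* and *Heyl* lie below the juvenile points in both induced groups, while by library totals *Notch3* with *c-Myc* (0.22) and *Jag1* with *c-Myc* + *R172H* (0.40) turned above 0 in log2 fold change.

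The second comparison asked what differed in *c-Myc*-induced osteoblasts. Relative to juvenile osteoblasts, *Jag1*, *Heyl* and *Notch3* fell, to 0.454, 0.494 and 0.658 of the juvenile level, and none of the 9 genes tested (*Nrarp* did not pass the filter) rose. Over all 12588 genes tested, 25% were called lower and 28.4% higher, so 3 of 9 lower is close to that background and 0 of 9 higher is set against 28.4%. *Jag1* and *Heyl* also had a log2 fold change of at least 1 in size, as had 16% of all genes, called lower, and 18.4%, called higher. The log2 fold change was below 0 for 8 of the 9 genes, with a median of -0.45, against a median of 0.037 over all genes tested.

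*Jag1* was at 8.13 and 11.5 CPM in *c-Myc*-induced osteoblasts, against 15.0 to 28.1 CPM in the 4 juvenile libraries. Both induced libraries lay below all juvenile and, for replicate 1, all adult libraries. The log2 fold change was -1.14 ± 0.25 (adjusted p = 0.00215). *Heyl* was at 6.67 and 9.58 CPM, below the lowest control library of either age (13.3 CPM), with a log2 fold change of -1.02 ± 0.26 (adjusted p = 0.00482). *Notch3* was at 26.6 and 32.0 CPM, just below the lowest juvenile library at 32.5 CPM, with a log2 fold change of -0.60 ± 0.22 (adjusted p = 0.0322). Without *c-Myc* replicate 1, the lower library for all 3 genes, the values were -0.90 (adjusted p = 0.0504) for *Jag1*, -0.77 (adjusted p = 0.0973) for *Heyl* and -0.47 (adjusted p = 0.235) for *Notch3*, and *Notch3* also lost its call without *c-Myc* replicate 2 (-0.74, adjusted p = 0.0658) or without juvenile replicate 1, 2 or 4 (adjusted p = 0.0507, 0.0853 and 0.055). With library totals as the scale the 3 genes were no longer called (-0.30, -0.19 and 0.22, the last with its sign turned), while relative to the median gene on that scale they were lower by the same order (-1.18, -1.06 and -0.65).

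Ratios of counts within a library are free of the scaling, but depend on the gene taken as reference. *Notch2*, the reference here, changed little on the TMM scale (-0.029), so these ratios restate the TMM values and are no separate support. Per 100 *Notch2* counts, *Notch3* had 15.5 to 23.2 counts in juvenile and 11.9 to 13.9 in *c-Myc*-induced libraries. *Jag1* had 6.87 to 11.3 against 3.63 to 4.98, and *Heyl* had 5.61 to 10.1 against 2.98 to 4.15. For each of the 3 genes both induced libraries lay below the 4 juvenile ones in this ratio as well. With 4 against 2 libraries no further test was made of it.

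The other receptors and targets did not pass the test. *Notch2* was at 224 and 231 CPM, within the juvenile range, with a log2 fold change of -0.029 ± 0.093 and an interval of 2 SE from -0.22 to 0.16. *Notch1* was at 19.5 and 21.4 CPM (-0.27 ± 0.22, adjusted p = 0.321) and *Hes1* at 14.2 and 19.2 CPM (-0.15 ± 0.20, adjusted p = 0.555), both within the juvenile range in at least 1 library. *Hey1* was at 4.16 and 6.18 CPM, of which 1 library lay below all juvenile ones (-0.45 ± 0.33, adjusted p = 0.270). With library totals as the scale *Notch2* was called higher (0.80, adjusted p = 0.000244), as was *Hes1* (0.67, adjusted p = 0.019), and both lay under that scale's median gene.

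The genes with the fewest counts were *Dll1*, *Hey2* and *Nrarp*. *Dll1* had 27 and 33 counts (1.23 and 1.87 CPM) in *c-Myc*-induced osteoblasts, within the wide juvenile range of 0.278 to 2.74 CPM (0.12 ± 0.78). *Hey2* (chromosome 10, 30832359 to 30842801), best known as a repressor in heart and vessels, had 4 and 11 counts against 3, 14, 2 and 10 in juvenile libraries. *Nrarp* (chromosome 2, 25180758 to 25183339, a gene of 1 exon) had 10 and 13 counts, 0.457 and 0.737 CPM, against 0 counts in all 4 juvenile libraries. The mean of *Nrarp* in *c-Myc*-induced osteoblasts was 1.74 times what 3 counts were worth in juvenile libraries (0.343 CPM on average). This is not a firm lower bound, as the 0.457 CPM of *c-Myc* replicate 1 was close to the 0.417 CPM that 3 counts were worth in juvenile replicate 3. In a fit without the filter on low counts it was called (adjusted p = 0.0126), and 1 adult library held 7 counts. Along 2051 bases its exon overlaps that of the antisense gene *Gm38287*, which held 0 or 1 count per library.

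The third comparison asked what differed when mutant p53 was present as well. In *c-Myc* + *R172H* osteoblasts 5 of the 9 genes tested fell relative to juvenile osteoblasts: *Heyl* to 0.249, *Notch3* to 0.433, *Hey1* to 0.533, *Notch1* to 0.592 and *Jag1* to 0.633 of the juvenile level. None rose. *Heyl* and *Notch3* also fell by at least 1 on the log2 scale, which 17.9% of all genes did, while 19.6% rose by as much. Over all genes tested 26.3% were called lower and 30.4% higher, and the median log2 fold change was -0.76 over the 9 genes and 0.076 over all genes. This comparison uses the same 4 juvenile libraries as the preceding one.

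*Heyl* was at 4.12 and 3.87 CPM, against 13.3 to 21.3 CPM in juvenile libraries. No library of another group came as low, and the log2 fold change was -2.01 ± 0.27 (adjusted p = 4.6e-05). In this comparison *Heyl* alone was called in all 18 alternatives, with values from -2.09 to -0.96, library totals included. *Notch3*, the receptor best known from mural cells, was at 23.5 and 14.3 CPM, against 32.5 to 50.6 CPM, a log2 fold change of -1.21 ± 0.22 (adjusted p = 0.000546). It was called in 17 of 18 alternatives, the exception being library totals (-0.16, adjusted p = 0.57).

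*Notch1* was at 13.8 and 14.7 CPM, below the 18.4 to 31.7 CPM of juvenile libraries (-0.76 ± 0.22, adjusted p = 0.0115). *Jag1* was at 13.9 and 12.9 CPM, below the lowest juvenile library at 15.0 CPM (-0.66 ± 0.24, adjusted p = 0.0355). *Hey1* was at 2.93 and 4.42 CPM, below the lowest juvenile library at 6.09 CPM (-0.91 ± 0.34, adjusted p = 0.0357). These 3 calls rested on few libraries: *Notch1* lost its call without either *c-Myc* + *R172H* library (adjusted p = 0.0796 and 0.0503), *Jag1* without either of these (0.115 and 0.166) or without juvenile replicate 1 or 4 (0.0619 and 0.0664), and *Hey1* without either of these (0.284 and 0.0577), without juvenile replicate 4 (0.053) or without *c-Myc* replicate 2 (0.0513). On the scale of library totals their values turned above 0 (0.28, 0.40 and 0.14) without a call, and lay under the median gene of that scale (differences of -0.83, -0.72 and -0.97).

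*Hes1* was at 14.7 and 12.6 CPM, of which 1 library lay below the lowest juvenile library (-0.41 ± 0.21, adjusted p = 0.106). It was called without juvenile replicate 4 (-0.51, adjusted p = 0.0354), and on library totals it was called in the other direction (0.63, adjusted p = 0.0234). *Notch2* was at 261 and 238 CPM, against 210 to 248 CPM in juvenile libraries (0.13 ± 0.093, adjusted p = 0.245), and 2 SE on either side reached from -0.054 to 0.32. On library totals it was called higher (1.18, adjusted p = 6.58e-06), 0.061 above that scale's median gene. *Dll1* had 16 and 26 counts (-0.46 ± 0.80) and *Hey2* had 3 and 6 counts (-1.86 ± 1.12, adjusted p = 0.178), both overlapping with juvenile libraries. *Nrarp* had 5 and 8 counts, and its mean of 0.313 CPM was under what 3 counts were worth in juvenile libraries, so no fold is given.

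Within libraries, *Heyl* had 1.58 to 1.63 counts per 100 *Notch2* counts in *c-Myc* + *R172H* osteoblasts, against 5.61 to 10.1 in juvenile osteoblasts. *Notch3* had 6.04 to 8.99 against 15.5 to 23.2, and *Notch1* had 5.29 to 6.19 against 7.85 to 15.1. *Hey1* had 1.12 to 1.86 against 2.73 to 3.60, and *Jag1* had 5.33 to 5.41 against 6.87 to 11.3. All 5 genes that fell were thus also lower relative to *Notch2* in both libraries than in any juvenile library. As *Notch2* itself changed little on the TMM scale (0.13), this restates the calls and is no separate support. Beside these values, the osteoblast marker sum was 395580 to 573304 CPM in juvenile, 67633 to 90167 in *c-Myc* and 36917 to 38810 CPM in *c-Myc* + *R172H* osteoblasts, and the pericyte and smooth muscle sum and the chondrocyte sum were lower in both induced groups as given above. The sum of 6 marrow stromal markers, all detected, was 326 to 415, 123 to 204 and 114 to 130 CPM in the same order, and that of 5 osteoclast markers, of which *Ocstamp* and *Calcr* were at 0, was 203 to 332, 84.0 to 104 and 52.2 to 52.3 CPM. The part of any of these in the lower *Notch3*, *Jag1*, *Heyl*, *Notch1* and *Hey1* was not tested.

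**Figure D3:**
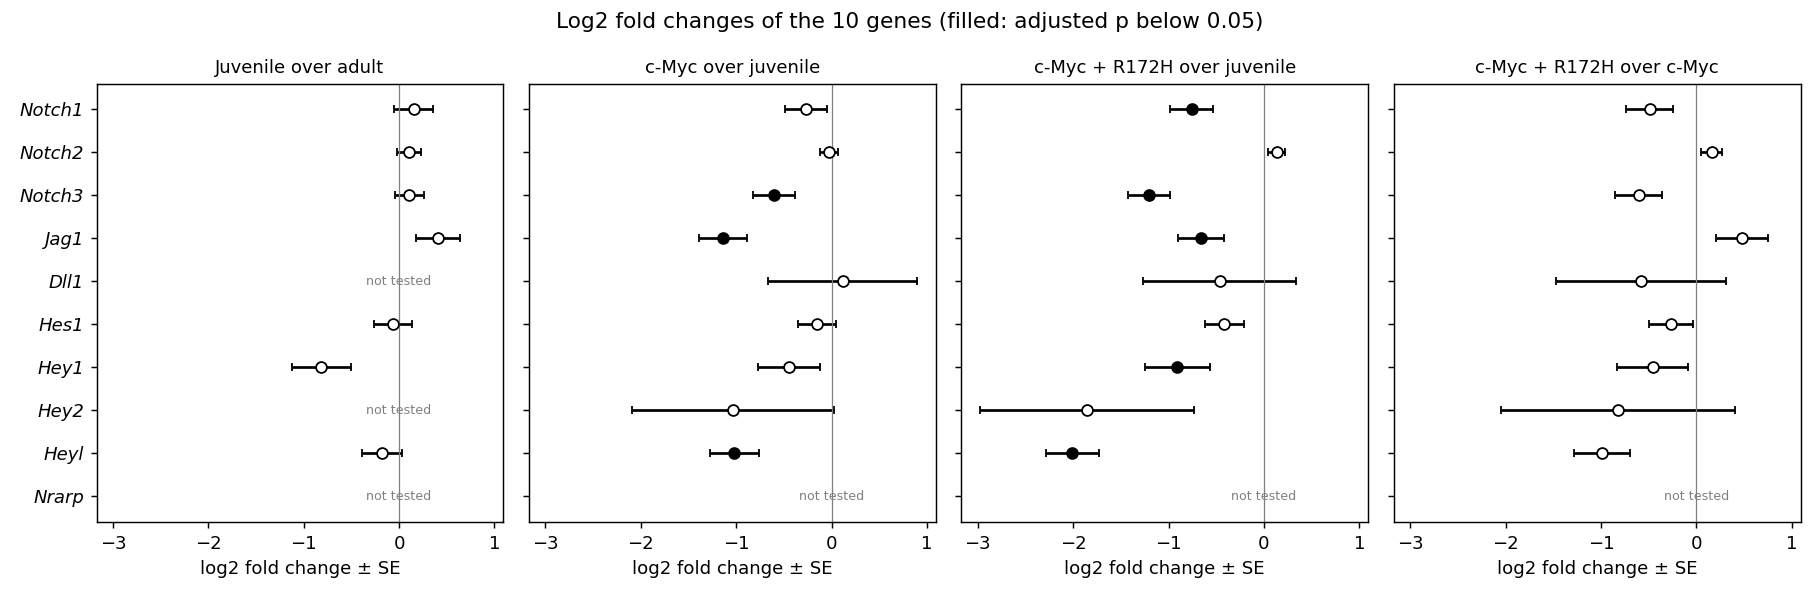
Log2 fold change (points) with its SE (bars) of the genes that passed the filter, 7 of the 10 for age and 9 of 10 in the other 3 comparisons, with the rest marked as not tested, scaled by TMM factors, with filled points for an adjusted p below 0.05. Filled points are *Notch3*, *Jag1* and *Heyl* for *c-Myc* over juvenile and these with *Notch1* and *Hey1* for *c-Myc* + *R172H* over juvenile; scaled by library totals, *Heyl* for *c-Myc* + *R172H* alone remained called lower, and *Notch3* (*c-Myc*), *Notch1*, *Jag1* and *Hey1* (*c-Myc* + *R172H*) turned above 0.

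The fourth comparison set the induced groups against each other. None of the 9 genes tested was called in *c-Myc* + *R172H* relative to *c-Myc*-induced osteoblasts by edgeR's quasi-likelihood test or by DESeq2, and 0.461% of all genes tested were called lower and 0.00794% higher (0.254% and 0% with a log2 fold change of at least 1). 2 genes had an unadjusted p below 0.05, *Heyl* (-0.99 ± 0.29, adjusted p = 0.309 in edgeR's test) and *Notch3* (-0.60 ± 0.25, adjusted p = 0.850). Both *Heyl* libraries (4.12 and 3.87 CPM) lay below both *c-Myc* libraries (6.67 and 9.58 CPM), as did both *Notch3* libraries (23.5 and 14.3 against 26.6 and 32.0 CPM). *Notch1* was at -0.49 ± 0.25 and also did not overlap, whereas *Jag1* was at 0.48 ± 0.28 with both libraries above both *c-Myc* libraries, each with an adjusted p of 1. A fit of these 4 libraries alone called *Notch1* (-0.48, adjusted p = 0.0151) and *Heyl* (-0.98, adjusted p = 0.00298), and a fit with the replicate number as a block called *Heyl* (-0.97, adjusted p = 0.0257). The fall of *Notch1* and *Hey1* past the test in *c-Myc* + *R172H* osteoblasts, and not in *c-Myc*-induced osteoblasts, is accordingly not a difference between these groups that passed the test.

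The other genes of the pathway were described from a list of 57 genes ordered by role. Relative to juvenile osteoblasts, 13 of the 51 tested rose and 14 fell in *c-Myc*-induced osteoblasts, and 14 rose and 12 fell in *c-Myc* + *R172H* osteoblasts, with medians of -0.11 and -0.070. These shares, 25.5% and 27.5% for *c-Myc* and 27.5% and 23.5% for *c-Myc* + *R172H*, are near those of all genes given above. On library totals the counts were 30 higher and 3 lower, and 35 higher and 2 lower. Between adult and juvenile osteoblasts 1 of 49 was called, *Neurl1b*, a ubiquitin ligase acting on Notch ligands, which was lower in juvenile osteoblasts (-2.41 ± 0.53, adjusted p = 0.0205) at 1.24 to 3.34 CPM against 2.94 to 24.3 CPM. It was not called without juvenile replicate 1 or 4 or adult replicate 1 or 4, and adult replicate 1 was the highest library. Between the induced groups none was called, and 3 had an unadjusted p below 0.05.

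Among receptors and ligands, *Jag2*, the second Serrate-type ligand, rose in both induced groups. It was at 1.55, 2.17, 2.78 and 0.994 CPM in juvenile libraries, 4.57 and 5.61 CPM in *c-Myc* and 5.13 and 5.76 CPM in *c-Myc* + *R172H* libraries. All 4 induced libraries lay above all 8 control libraries, with log2 fold changes of 1.43 ± 0.40 (adjusted p = 0.00907) and 1.55 ± 0.40 (adjusted p = 0.00497). *Jag2* thus went from 6.80% ± 3.71 of the summed ligand level per length in juvenile to 23.3% ± 1.60 in *c-Myc* and 20.2% ± 1.36 in *c-Myc* + *R172H* osteoblasts, as *Jag1* went down. *Dll4*, an endothelial ligand, was at 0 in 3 juvenile libraries and 0.695 CPM in the other, 0 in all adult libraries, 0.868 and 0.794 CPM in *c-Myc* and 0.915 and 0.844 CPM in *c-Myc* + *R172H* osteoblasts (adjusted p = 0.125 and 0.103). *Dll3*, a ligand that acts within its own cell, was at 0.457 CPM in 1 juvenile library and 0 in the other 7 controls, 0.320 and 0.567 CPM in *c-Myc* and 0.824 and 0.993 CPM in *c-Myc* + *R172H* osteoblasts (adjusted p = 0.287 and 0.0689). *Notch4*, the endothelial receptor, was at no more than 2.36 CPM in any library (adjusted p = 0.223 and 0.297). For the endothelial genes, the endothelial marker sum was 7.74 to 9.13 CPM in induced and 1.49 to 2.74 CPM in juvenile libraries, and its part was not tested.

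Around the receptors, the sugar transferases, which modify their extracellular part, had 3 of 4 higher and 0 lower in *c-Myc* and 2 of 4 higher and 0 lower in *c-Myc* + *R172H* osteoblasts. Counts by role are given as a description, and over all genes 28.4% and 30.4% were called higher and 25% and 26.3% lower. *Lfng* rose by a log2 fold change of 1.17 ± 0.39 and 1.66 ± 0.38, though at 1.53 to 7.43 CPM in juvenile and 4.53 to 12.4 CPM in adult libraries its adult range reached the *c-Myc* level of 8.90 and 10.7 CPM. Of the 10 cleavage genes, 1 rose and 3 fell in *c-Myc* and 1 rose and 2 fell in *c-Myc* + *R172H* osteoblasts. *Furin*, which cuts the receptor on its way to the surface, fell by 1.27 and 1.35 on the log2 scale. *Adam10*, the protease of the ligand-induced cut, fell by 0.55 and 0.73. *Adam17* rose by 0.42 in both, and *Aph1b*, a gamma-secretase subunit, fell by 1.42 in *c-Myc*-induced osteoblasts.

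The ubiquitin ligase and endocytosis genes had 2 of 11 higher in both groups, 4 lower in *c-Myc* and 6 lower in *c-Myc* + *R172H* osteoblasts. *Neurl1a* had the lowest fold changes of the list, from 8.77 to 15.5 CPM in juvenile to 2.28 and 1.13 CPM in *c-Myc* and 0.229 and 0.496 CPM in *c-Myc* + *R172H* osteoblasts (-2.78 ± 0.42 and -4.99 ± 0.51). *Numbl*, a relative of the Notch inhibitor *Numb*, fell by 1.58 and 1.49. *Fbxw7*, which marks the Notch intracellular part and MYC itself for degradation, rose by 0.82 and 0.99, and *Mib1*, the ligase needed for ligand activity, by 0.66 and 0.83. *Neurl1b* fell by 1.89 in *c-Myc* + *R172H* osteoblasts.

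In the nucleus, *Rbpj* itself was at 8.36 to 13.2 CPM in juvenile, 8.11 and 10.0 CPM in *c-Myc* and 11.5 and 11.6 CPM in *c-Myc* + *R172H* libraries, overlapping in both comparisons (-0.13 ± 0.24 and 0.25 ± 0.24, adjusted p = 0.682 and 0.401). Of the 9 nuclear complex genes 2 rose and 4 fell in *c-Myc* and 2 rose and 1 fell in *c-Myc* + *R172H* osteoblasts. *Kat2a*, a histone acetyltransferase that is also a MYC cofactor, rose from 16.5 to 21.0 CPM in juvenile to 86.5 and 81.0 CPM in *c-Myc* and 83.9 and 84.3 CPM in *c-Myc* + *R172H* libraries (2.11 ± 0.11 and 2.15 ± 0.11). *Snw1* rose by 0.42 and 0.61, and *Maml2*, a coactivator of the RBPJ complex, fell by 0.93 and 0.96. Among 12 corepressors 4 rose and 2 fell in *c-Myc* and 6 rose and 2 fell in *c-Myc* + *R172H* osteoblasts, led by *Tle4* (1.29 and 2.04) and *Tle1* (-1.27 and -1.32). Of the other targets, *Hes5* and *Hes7* had no count in the 8 control libraries and at most 0.340 CPM in induced ones. *Hes6*, an inhibitor of *Hes1* activity that is not usually induced by Notch, fell from 18.1 to 31.4 CPM in juvenile to 13.6 and 12.7 CPM in *c-Myc* (-0.91 ± 0.22, adjusted p = 0.00354) and 8.01 and 9.23 CPM in *c-Myc* + *R172H* osteoblasts (-1.49 ± 0.23, adjusted p = 0.000113).

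**Figure D4:**
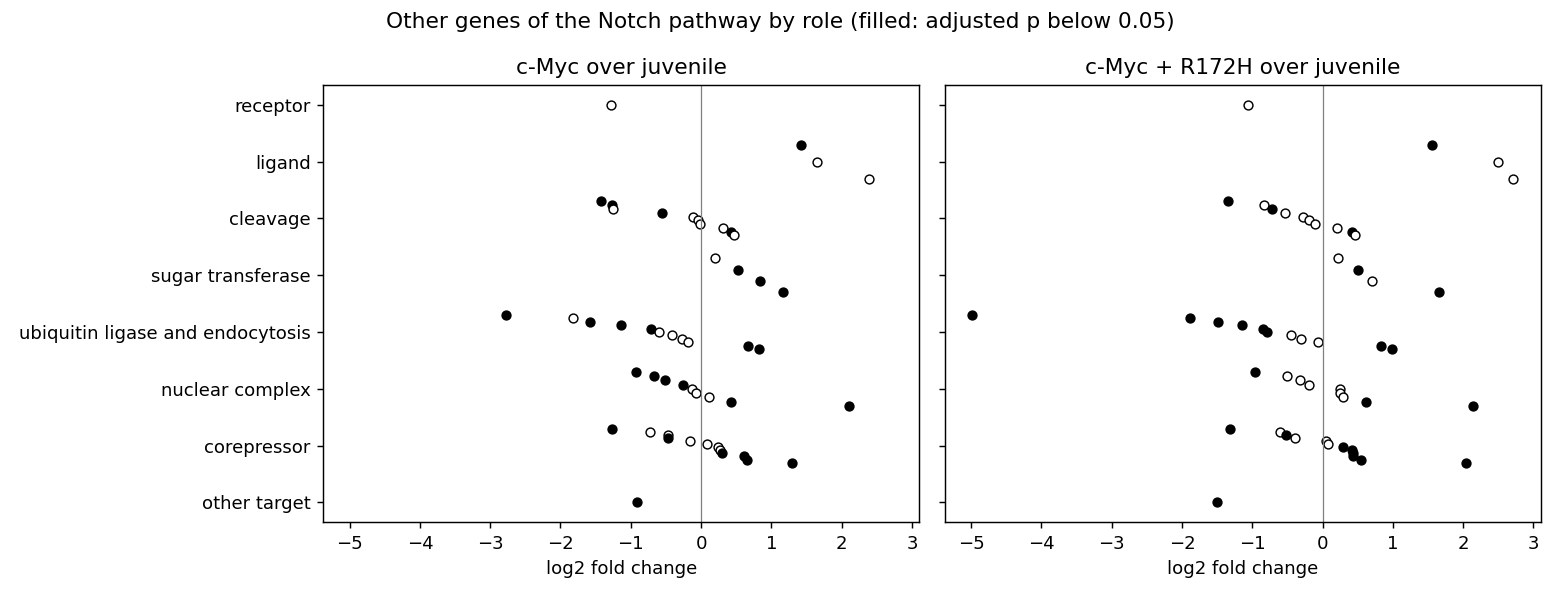
Log2 fold changes of the other pathway genes that passed the filter, grouped by role, for *c-Myc* (left) and *c-Myc* + *R172H* (right) over juvenile osteoblasts, scaled by TMM factors, with filled points for an adjusted p below 0.05. Called genes lie on both sides of 0, with *Neurl1a* lowest at -2.78 and -4.99; scaled by library totals, 30 and 35 were called higher and 3 and 2 lower.

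Likeness of pattern was measured as Pearson's r of log2 CPM over the 12 libraries, among 13005 genes. The 12 points fall into the 4 groups and share library composition, so r is given as a description. The genes most like *Heyl* were *Col5a3* (r = 0.98), *Atp6v0a1* (0.97) and *Znfx1* (0.97), those most like *Notch3* were *Zfp467* (0.96), *Tbxas1* (0.94) and *Rtn4rl1* (0.93), and those most like *Jag1* were *Galnt10* (0.93), *Usp16* (0.93) and *Add1* (0.89). For *Notch2* these were *Zbtb9*, *Zfp704* and *Foxp1* (0.91), for *Hes1* *Slc25a32*, *Irak3* and *Cdk15* (0.88 to 0.86) and for *Hey1* *mt-Nd4*, *mt-Cytb* and *Map4k5* (0.92 to 0.91). Among pairs of 9 of the 10 genes (*Nrarp* did not pass the filter), the highest r was that of *Notch3* with *Heyl* (0.82), followed by *Notch1* with *Heyl* (0.76) and *Hey1* with *Heyl* (0.71), and the lowest was that of *Notch2* with *Heyl* (-0.57).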

How the data were processed

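The authors used cutadapt 4.6 to trim reads of a directional total RNA library, STAR 2.7.11a for alignment to mm10 and HTSeq 2.0.5 for counting per gene, per the labels and the methods, and deposited raw counts without normalization. The strand setting of the counting is not given in the sources used here. Of 139 genes whose exons lie wholly under exons of the other strand, 70 had no count and 2 had at least 1000 counts. Exons of *Notch1*, *Notch3*, *Dll1* and *Nrarp* overlap antisense genes in part, and those of *Notch2* a gene on the same strand, so their counts are uncertain to that extent.

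Counts were tested in R 4.3.3 with edgeR 4.0.16 (TMM, default expression filter, robust quasi-likelihood F test) over all genes, with Benjamini-Hochberg adjustment at 0.05. The age comparison was fitted on 8 libraries, and the 3 others shared a fit of the 8 juvenile and induced libraries. Each SE is the size of the fold change (log2) over the root of its F statistic. CPM use TMM factors over 12 libraries, and kilobases and coordinates come from the GENCODE annotation of GRCm38. Groups and replicate numbers follow the titles. Replicates of every pair differed by more than sampling noise (chi-square per degree of freedom 5.45 to 136). No source says how many mice each induced library came from, but the 2 libraries of each induced group differed in *Xist* and so were not repeats of 1 mouse. Reads carry no molecular identifiers, so limits of 3 counts cover counting error only.

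Named were the 10 genes, by role at most the 2 largest rises and 2 largest falls among called genes of the pathway list with *Notch4*, *Dll3*, *Dll4*, *Jag2* and *Rbpj*, and the 3 genes most like each of the 10; likeness to *Dll1* and *Hey2* is left out for their few counts, and that to *Notch1* is not reported here. The genes and lists were chosen with earlier results of these data known. Alternatives were RLE, upper-quartile and library-total scaling, leaving out *Col1a1*, *Col1a2* and *Gm26917*, other filters and sets of libraries, a replicate block, DESeq2 1.42.0, a required log2 fold change of 1 and each library left out. The procedure was tested on simulated data in which some genes had a log2 fold change of 1. It recovered 50% of these for age and 42.1% for *c-Myc* over juvenile. The share was 47.2% for *c-Myc* + *R172H* over juvenile and 40.9% between the induced groups. In each comparison 195 to 198 genes had been given that change. In the data 3577 genes were called higher and 3149 lower for *c-Myc* over juvenile, and 3832 and 3311 for *c-Myc* + *R172H*. The adjusted p depends on how many genes differ, so these shares do not carry over to those comparisons. How many changes of that size went uncalled in the data was not tested.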

Additional observations from a re-analysis of the deposited data

Results flagged for a closer look

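3 of the values stood apart from the other libraries of their group by Dixon's test (gap to the nearest library over the group's range, at the critical value for 4 libraries), out of 19 groups of 4 tested. Chance gives about 1 in 20 groups. *Hey1* was at 8.94 CPM in juvenile replicate 4, a gap of 0.861 of the range above the other juvenile libraries. *Heyl* was at 24.2 CPM in adult replicate 4, with a gap of 0.936 of the range. *Nrarp* was at 0.709 CPM (7 counts) in adult replicate 1 and at 0 in the other 3 adult libraries, so its gap was 1 of the range. With the other 3 values tied at 0, any count at all gives this gap. The rate of 1 in 20 therefore does not apply to *Nrarp*, and nothing is drawn from its flag.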

How the results depend on the processing

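The scale set the directions most. By library totals, the genes called lower numbered 1 for age, 0 for *c-Myc* and 1 for *c-Myc* + *R172H* over juvenile, and those called higher 0, 2 and 2. Values turned to -0.11, -0.13 and -0.13 for *Notch1*, *Notch2* and *Notch3* with age, to 0.56, 0.80, 0.22, 0.67 and 0.38 for *Notch1*, *Notch2*, *Notch3*, *Hes1* and *Hey1* with *c-Myc*, and to 0.28, 0.40, 0.53, 0.63 and 0.14 for *Notch1*, *Jag1*, *Dll1*, *Hes1* and *Hey1* with *c-Myc* + *R172H*. Over all genes that scale called 53 higher and 793 lower with age (against 214 and 367), 6803 and 1115 with *c-Myc* (3577 and 3149) and 7668 and 1169 with *c-Myc* + *R172H* (3832 and 3311). Other pathway genes became 2 lower with age, 30 higher and 3 lower with *c-Myc*, and 35 higher and 2 lower with *c-Myc* + *R172H*. Without a filter *Nrarp* entered, so 1 gene was called higher with *c-Myc* and 1 with *c-Myc* + *R172H*, *Notch2* with *c-Myc* turned to 0.026, and of the other pathway genes 3 were higher and 3 lower with age and 1 lower between the induced groups. *Hey1* with *c-Myc* + *R172H* was not called without a filter (adjusted p = 0.0555) or with all 12 libraries (0.0571). For age, all 12 libraries gave 4 higher and 2 lower and DESeq2 4 higher and 3 lower pathway genes. DESeq2 gave 1 lower pathway gene between the induced groups. With a log2 fold change of 1 also required, 2 of the 10 genes were lower with *c-Myc* + *R172H*, and pathway genes were 4 higher and 6 lower with *c-Myc* and 4 higher and 7 lower with *c-Myc* + *R172H*. Fits of the 2 groups alone gave 2 of the 10 genes lower, and 2 pathway genes higher and 2 lower, between the induced groups. The cause of these changes was not tested.

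The replicate block gave 1 of the 10 genes and 1 pathway gene lower between the induced groups, turned *Dll1* with *c-Myc* to -0.16, called *Hes1* with *c-Myc* + *R172H* (-0.45, adjusted p = 0.0461) and lost *Jag1* there (-0.45, adjusted p = 0.0817). Deviations of same-numbered libraries correlated between -0.052 and 0.037 for pairs with juvenile libraries and 0.14 between the induced groups over 13005 genes. With juvenile libraries they share only a number, whereas same-numbered libraries of the induced groups, only 2 pairs, were also alike in *Xist*. In groups of 2 libraries the deviations mirror each other, so both pairs necessarily give the same 0.14, which is a single value.

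Leaving out 1 library, where a lone sample was assumed to vary like the other groups, gave 0 to 3 of the 10 genes lower with *c-Myc* (0 without *c-Myc* replicate 1), 0 to 1 higher (*Nrarp*, without either *c-Myc* + *R172H* library) and 2 to 5 lower with *c-Myc* + *R172H* (2 without either of its own libraries). For other pathway genes it gave 0 to 2 higher and 0 to 2 lower with age, 7 to 13 higher and 9 to 14 lower with *c-Myc*, and 6 to 15 higher and 9 to 13 lower with *c-Myc* + *R172H*, where the lowest counts came without *c-Myc* replicate 2 for *c-Myc*, and without *c-Myc* + *R172H* replicate 1 (higher) or 2 (lower). The sign turned for *Hes1* with age (-0.16 to 0.073), for *Notch2* (-0.074 to 0.0084), *Dll1* (-0.21 to 0.72) and *Hes1* (-0.39 to 0.056) with *c-Myc*, for *Dll1* with *c-Myc* + *R172H* (-0.95 to 0.14) and for *Hey2* between the induced groups (-1.49 to 0.24). Low counts limit *Dll1*, *Hey2* and *Nrarp*.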
